A study of Mus musculus with 6 samples.

Results

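Expression of 41 lipid genes was compared between keratinocytes of mouse skin that carry the surface protein CD34 and those that lack it. The genes were listed by name in 3 groups: 18 genes of cholesterol synthesis and its control, 14 of fatty acid synthesis, elongation, desaturation and activation, and 9 of lipid storage or the sebaceous gland. A probe on the array was found for 40 of the 41, and all 40 were tested among 20076 genes and unnamed probes. Hmgcs1, which makes the precursor of mevalonate, was the member for which no probe was found.

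Mice were 7 weeks old, and their trypsin-released skin cells were sorted into alpha6+CD34+ cells, which the labels call stem and progenitor cells, and alpha6+CD34- cells, which they call basal cells. RNA of both populations was hybridised together, in each of 3 biological replicates, on 2 arrays with the Cy3 and Cy5 dyes exchanged. The 2 arrays of a replicate were averaged, so every log2 ratio of CD34+ over CD34- below has n = 3. The labels name neither strain nor sex, and whether a replicate pooled several animals is not stated. The gate selected a surface phenotype, so each population is a mixture, and in such bulk RNA a smaller number of cells of a type and less RNA per cell cannot be told apart.

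CD34 marks keratinocytes of the hair follicle bulge, and alpha6 integrin marks cells that face the basement membrane. Cd34 itself, the gene of the sorted protein, had a log2 ratio of 5.84 ± 0.43 (SD, n = 3), and 5 of 6 other bulge markers passed the test as higher in CD34+ cells. Itga6, the gene of the other sorted protein, was lower in CD34+ cells at -1.18, as was the basal keratin Krt14 at -1.11, whose probe was saturated on 4 arrays, whereas the hemidesmosome genes Col17a1 and Itgb4 were higher at 0.67 and 0.38. The suprabasal keratin Krt1 was lower at -2.28 and the cornified envelope gene Lor higher at 1.51. Among genes of dividing cells all 5 had negative ratios and 3 passed as lower in CD34+ cells, Mki67 at -1.87, Top2a at -1.38 and Birc5 at -0.54. Of the fibroblast markers Fbln1 and Col1a2 were higher at 1.80 and 1.02, the other 5 did not pass, and the list summed to a normalised intensity of 1887 to 3318 in CD34+ samples and 1077 to 1475 in CD34- samples. Of 5 Langerhans cell markers Tyrobp passed, lower at -0.24, and of 8 adipocyte markers none passed by limma, with 2 under an unadjusted p of 0.05. Over the whole array, 12.0% of features passed, and 6158 of 20076 had an unadjusted p under 0.05. The part of fibroblasts, Langerhans cells, adipocytes and other cell types in the lipid results was not tested.

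Cells make cholesterol from acetyl-CoA through mevalonate, isoprenoids, squalene and lanosterol. The pathway is switched on by the transcription factor SREBP2, which the INSIG proteins hold back in the endoplasmic reticulum when sterol is plentiful. Fatty acid synthase makes saturated chains that elongases lengthen, desaturases bend and acyl-CoA synthetases activate. In skin these lipids feed sebum, made in the sebaceous gland beside the bulge, and the barrier of the cornified layer.

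The lipid genes did not move one way as a whole, with 23 positive and 17 negative ratios. By limma with Benjamini-Hochberg adjustment over all features, 3 of the 40 were higher and 3 lower in CD34+ cells at an adjusted p under 0.05. That is 15% of the members, and 12.0% of all features passed, 5.41% as higher and 6.64% as lower, so the members' share lay near that of the array. The median log2 ratio of the members was 0.02, and that of all features 0.00. The genes that passed were Elovl5, Insig1 and Sqle as higher, and Hsd17b7, Acsl1 and Sc5d as lower. All 6 kept their sign on each of the 6 arrays. Without replicate 1 no feature of the array passed (0 of 20076 by limma, with 4615 under an unadjusted p of 0.05), without replicate 2 only Hsd17b7 of the members did, and without replicate 3, whose arrays were read with a lower-numbered software version, 5 were higher and 7 lower.

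**Figure D1:**
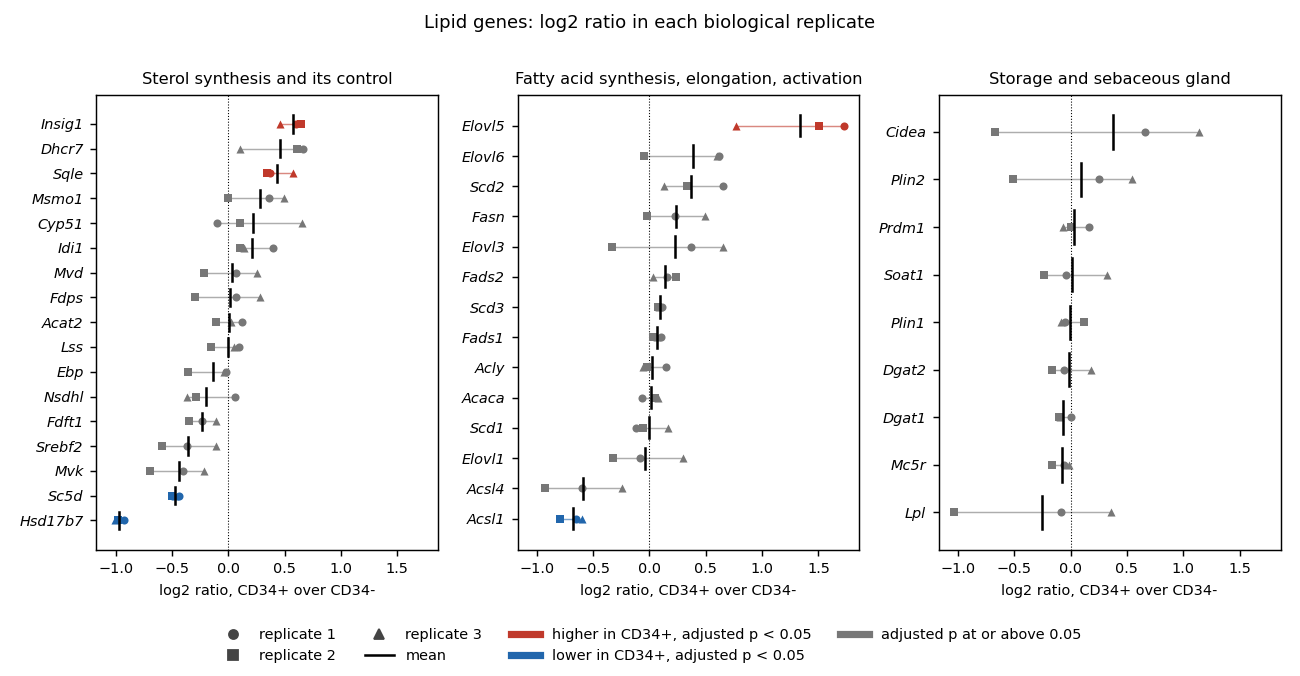
Log2 ratio of CD34+ over CD34- (x axis) for the 40 tested lipid genes (rows, ordered by mean within each panel), with a symbol for each of the 3 replicates and a black bar for their mean. The 6 coloured genes passed an adjusted p of 0.05, 4 of them in the sterol panel, 2 in the fatty acid panel and 0 in the storage and sebaceous panel.

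In the sterol group, 2 of 17 tested genes were higher and 2 lower in CD34+ cells, and the other 13 did not pass. That is 23.5%, beside 12.0% of all features, in a group too small to read a difference from. The regulator Insig1 and the squalene-oxidising enzyme Sqle were the higher ones, and Hsd17b7 and Sc5d, which act on the closed ring, the lower ones. The group's median log2 ratio was 0.01, with replicate medians of 0.07, -0.21 and 0.05 in replicates 1, 2 and 3. Ratios were positive for 9 genes and negative for 8, from -0.97 to 0.57.

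Hsd17b7, which reduces the keto group left when a methyl group is removed from the sterol ring, had the lowest ratio of all members. Its normalised intensity was 256, 163 and 277 in CD34+ samples of replicates 1, 2 and 3, against 487, 320 and 558 in CD34- samples. Every CD34+ sample lay below every CD34- sample. The log2 ratio was -0.97 ± 0.04 (SD, n = 3), a ratio of 0.51, with an adjusted p of 0.00693 by limma. Replicates agreed closely here once the 2 dye arrays were averaged, and 84.1% of all features had an SD at least as large. On single arrays the log2 ratios were -1.03, -1.11 and -1.22 with CD34+ in Cy5. With CD34+ in Cy3 they were -0.82, -0.84 and -0.80.

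Sc5d, the desaturase that sets the ring double bond in one of the last steps, had 345, 317 and 380 units in CD34+ samples and 468, 449 and 527 units in CD34- samples. These ranges were also apart. Its log2 ratio was -0.47 ± 0.03 (SD, n = 3; limma adjusted p = 0.0175).

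Sqle, squalene epoxidase, which adds the oxygen that starts ring closure, had 407, 378 and 1069 units in CD34+ samples and 314, 298 and 716 units in CD34- samples. Replicate 3 was the brightest in both populations, so the populations overlapped in level while CD34+ exceeded CD34- within each replicate. The log2 ratios of 0.37, 0.34 and 0.58 averaged 0.43 ± 0.13 (SD, n = 3; limma adjusted p = 0.0312).

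Insig1, the endoplasmic reticulum protein that retains SREBP2 when sterol is plentiful, had 245, 212 and 329 units in CD34+ samples and 161, 135 and 240 units in CD34- samples. The levels overlapped again, and the order within each replicate was the same. Log2 ratios of 0.60, 0.65 and 0.46 averaged 0.57 ± 0.10 (SD, n = 3; limma adjusted p = 0.0190). Its probe carries only a description of a rat protein homologue in the scanner files, and the adjusted p was 0.127 when all 6 arrays were fitted with a dye term. On the arrays of replicate 2 its log2 ratio was 1.16 with CD34+ in Cy5 and 0.13 with CD34+ in Cy3.

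**Figure D2:**
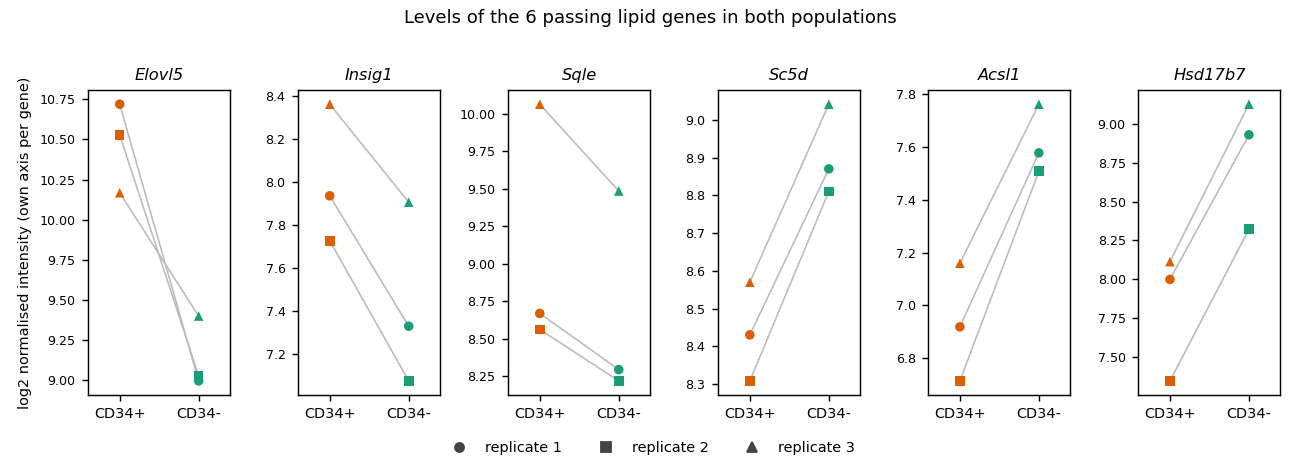
Log2 of the normalised intensity (y axis, a separate range for each gene) in CD34+ samples, left, and CD34- samples, right, of the 6 lipid genes that passed, with a line joining the populations of a replicate. All lines fall from left to right for Elovl5, Insig1 and Sqle and climb for Sc5d, Acsl1 and Hsd17b7.

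The remaining sterol genes gave no call. Among the enzymes up to squalene, mevalonate kinase Mvk was at -0.44 ± 0.24 (SD, n = 3; limma adjusted p = 0.0731), and at -0.75 in the deposited ratios, which have no offset. The decarboxylase Mvd was at 0.04, the isomerase Idi1 at 0.21, farnesyl diphosphate synthase Fdps at 0.02 and squalene synthase Fdft1 at -0.23. Mvd and Fdps each had 1 negative replicate, replicate 2, and 2 positive ones. The probe counted as Acat2, the cytosolic thiolase, was named only through an old synonym in its description, may measure another gene, and was at 0.01. Without it, an alternative chosen after seeing the data, the median of the sterol group was 0.01.

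Beyond squalene, lanosterol synthase Lss was at 0.00 ± 0.13 (SD, n = 3) and the methylsterol oxidase Msmo1 at 0.28 ± 0.26. The Lss probe was dim, with 97, 89 and 109 units in CD34+ samples and 91, 99 and 106 units in CD34- samples, so a difference would be compressed. The dehydrogenase Nsdhl was at -0.20 ± 0.23, or at -0.36 in the deposited ratios, and the isomerase Ebp at -0.14 ± 0.19. Dhcr7, the reductase that makes cholesterol in the final step, had log2 ratios of 0.66, 0.61 and 0.10 and a limma adjusted p of 0.101. Replicate 3 was the low one for Dhcr7, and without it the mean of 0.64 passed at an adjusted p of 0.00621.

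Cyp51, the lanosterol demethylase, differed by dye more than by replicate. With CD34+ in Cy5 its log2 ratios were -0.36, -0.19 and -0.46, and with CD34+ in Cy3 they were 0.16, 0.39 and 1.78. The averaged ratio of 0.22 ± 0.39 (SD, n = 3) therefore combines opposite signs on the arrays. No direction was read from this probe.

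Srebf2, which encodes SREBP2, was negative in all 3 replicates at -0.37, -0.59 and -0.11 (mean -0.36, limma adjusted p = 0.109). Its paralog Srebf1, the main activator of fatty acid synthesis genes, was at -0.46 (limma adjusted p = 0.0982). Neither of them passed.

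Promoter sequence was examined for the sterol genes because SREBP2 is known to act with NF-Y, the factor that binds the CCAAT box. RefSeq promoters of assembly GRCm38.p6 were held for 29 of the 41 members, and the 250 bases before the start were searched on both strands for CCAAT and for the sterol regulatory element core TCACNCCAC. A CCAAT was present in 14 of 15 sterol genes (93.3%), 4 of 10 fatty acid genes (40%) and 3 of 4 storage and sebaceous genes, against 37.5% of the 27025 genes in the table. The exact sterol element core was present in 2 members, Hmgcs1 and Acsl1, and in 1.22% of all genes. The matches describe the letters in these windows.

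The promoters of 2 higher genes, Insig1 and Elovl5, and of 2 lower genes, Hsd17b7 and Sc5d, are shown to set the CCAAT content of genes that moved in opposite directions side by side. Capitals mark CCAAT, or ATTGG where it lies on the other strand, and each sequence ends at the base before the start.
Insig1, chr5:28071162-28071411, plus strand: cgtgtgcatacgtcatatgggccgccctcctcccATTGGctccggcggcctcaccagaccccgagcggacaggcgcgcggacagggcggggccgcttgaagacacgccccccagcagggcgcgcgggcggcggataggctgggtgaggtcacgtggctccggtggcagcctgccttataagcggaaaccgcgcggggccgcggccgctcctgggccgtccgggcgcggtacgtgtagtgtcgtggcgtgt
Elovl5, chr9:77917115-77917364, plus strand: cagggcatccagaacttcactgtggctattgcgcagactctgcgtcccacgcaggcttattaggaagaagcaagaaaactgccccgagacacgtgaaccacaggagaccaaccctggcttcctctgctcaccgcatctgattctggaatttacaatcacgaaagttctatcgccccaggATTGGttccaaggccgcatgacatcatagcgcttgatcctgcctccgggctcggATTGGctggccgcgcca
Hsd17b7, chr1:169969206-169969455, minus strand: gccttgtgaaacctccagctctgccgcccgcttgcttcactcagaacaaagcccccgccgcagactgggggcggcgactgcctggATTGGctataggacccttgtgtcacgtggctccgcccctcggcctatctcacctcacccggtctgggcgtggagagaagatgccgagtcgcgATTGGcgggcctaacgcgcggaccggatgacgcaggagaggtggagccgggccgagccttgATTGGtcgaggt
Sc5d, chr9:42264301-42264550, minus strand: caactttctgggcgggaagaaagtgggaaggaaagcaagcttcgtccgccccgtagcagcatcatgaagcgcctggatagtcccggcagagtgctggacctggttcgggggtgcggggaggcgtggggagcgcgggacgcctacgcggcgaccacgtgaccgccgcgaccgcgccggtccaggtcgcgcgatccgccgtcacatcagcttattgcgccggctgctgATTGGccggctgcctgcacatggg
A CCAAT was thus found in genes of both directions, once in Insig1, 2 times in Elovl5, 3 times in Hsd17b7 and once in Sc5d. The match nearest to the start lay 216 bases before it in Insig1, 17 in Elovl5, 12 in Hsd17b7 and 24 in Sc5d, counted to the first base of the match.

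Among the 14 fatty acid genes, 1 was higher and 1 lower in CD34+ cells (14.3%, beside 12.0% of all features), and 12 did not pass. The elongase Elovl5 was the higher one and the acyl-CoA synthetase Acsl1 the lower one. The median log2 ratio of the group was 0.08, and its replicate medians were 0.13, -0.02 and 0.11. The ratio was positive for 10 genes and negative for 4.

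Elovl5, which lengthens polyunsaturated fatty acids, had the highest ratio of all members. Its normalised intensity was 1686, 1476 and 1150 in CD34+ samples and 510, 521 and 675 in CD34- samples. The populations did not overlap, and replicate 3 had both the lowest CD34+ and the highest CD34- value. Log2 ratios of 1.73, 1.50 and 0.77 averaged 1.33 ± 0.50 (SD, n = 3), a ratio of 2.52, with a limma adjusted p of 0.0310. When arrays were also scaled to one spread the adjusted p was 0.0567.

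Acsl1, which activates long-chain fatty acids as CoA esters, had 121, 105 and 143 units in CD34+ samples and 191, 182 and 217 units in CD34- samples. All CD34+ samples lay below all CD34- samples. The log2 ratio was -0.68 ± 0.10 (SD, n = 3; limma adjusted p = 0.0152), and it was -1.08 in the deposited ratios, since the offset of 50 added here shrinks ratios of dim probes. Its paralog Acsl4, which prefers arachidonic acid, was also negative in each replicate at -0.60, -0.93 and -0.25, without passing (limma adjusted p = 0.0727).

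None of the enzymes that make saturated chains passed. ATP citrate lyase, Acly, which supplies acetyl-CoA, was at 0.02 ± 0.11 (SD, n = 3). Acetyl-CoA carboxylase, Acaca, was at 0.02 on its brighter probe and at -0.03 on its other probe. Fatty acid synthase, Fasn, was at 0.23 ± 0.25, with replicate values of 0.23, -0.02 and 0.49.

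None of the fatty acid desaturases passed. Scd1, a stearoyl-CoA desaturase found in the sebaceous gland among other tissues, was at 0.00 ± 0.15 (SD, n = 3), and Scd3, its relative in the same gland, at 0.09 ± 0.02. Scd2, a further relative, had replicate values of 0.65, 0.33 and 0.13 and a limma adjusted p of 0.116. The polyunsaturated fatty acid desaturases Fads1 and Fads2 were at 0.06 and 0.14. The Scd genes are close relatives, and whether their probes hybridise to each other's transcripts was not tested.

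No other elongase passed. Elovl6, which lengthens palmitate, had replicate values of 0.62, -0.05 and 0.60 (mean 0.39, limma adjusted p = 0.189). Elovl3, an elongase of the sebaceous gland and brown fat, had 0.37, -0.33 and 0.65. Elovl1, which makes very long saturated chains, was at -0.04 ± 0.31 (SD, n = 3), and Elovl4, a paralog that makes the ultra-long chains of skin ceramides, was at -0.48 with replicate values of -0.41, -1.23 and 0.20. Differences between elongases were not tested.

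In the storage and sebaceous group 0 of 9 genes passed by limma, and 0 had an unadjusted p under 0.05. Of all 20076 features, 12.0% passed and 6158 had an unadjusted p under 0.05, so with 9 genes these counts say little. The median log2 ratio was -0.01, with replicate medians of -0.04, -0.17 and 0.18. Spread between replicates differed widely within the group, with an SD of 0.06 for Dgat1 and 0.94 for Cidea. Sign was the same in all 3 replicates for 1 of the 9 (11.1%), compared with 10 of 17 sterol genes, 7 of 14 fatty acid genes and 55.2% of all features.

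Most of these genes had means close to 0. The triglyceride-making enzymes were at -0.07 ± 0.06 for Dgat1 and -0.02 ± 0.18 for Dgat2 (SD, n = 3 each), and the lipid droplet protein Plin1 was at -0.01 ± 0.11. Plin1 was negative with CD34+ in Cy5, at -0.29, -0.10 and -0.22, and positive with CD34+ in Cy3, at 0.19, 0.33 and 0.04. Its mean therefore combines opposite signs, and no direction was read from its probe. Mc5r, the melanocortin receptor of sebocytes, was at -0.08 ± 0.08, and Prdm1, the repressor also called Blimp1, was at 0.03 ± 0.12. Soat1, which esterifies cholesterol, was at 0.02 ± 0.29. The Mc5r probe read 79, 88 and 92 units in CD34+ samples and 82, 99 and 94 units in CD34- samples, little above the offset of 50. A difference in a gene this dim would be compressed.

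Cidea, a lipid droplet protein of sebocytes and brown fat, had 624, 356 and 2076 units in CD34+ samples and 396, 566 and 944 units in CD34- samples. CD34+ was higher in replicates 1 and 3 and lower in replicate 2, on both arrays of each replicate. The log2 ratios of 0.66, -0.67 and 1.14 had an SD of 0.94, and 0.14% of all features had an SD as large or larger.

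Plin2, the coat protein of lipid droplets in most cells, followed the same order, with 2310, 1523 and 2533 units in CD34+ samples and 1941, 2173 and 1741 units in CD34- samples. Its log2 ratios were 0.25, -0.51 and 0.54. Lpl, the lipase that releases fatty acids from lipoproteins, had 180, 125 and 321 units in CD34+ samples and 191, 255 and 250 units in CD34- samples, with ratios of -0.09, -1.03 and 0.36. Replicate 2 was the lowest of the 3 for Cidea, Plin2, Lpl and Elovl3, which were singled out after their values were seen.

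**Figure D3:**
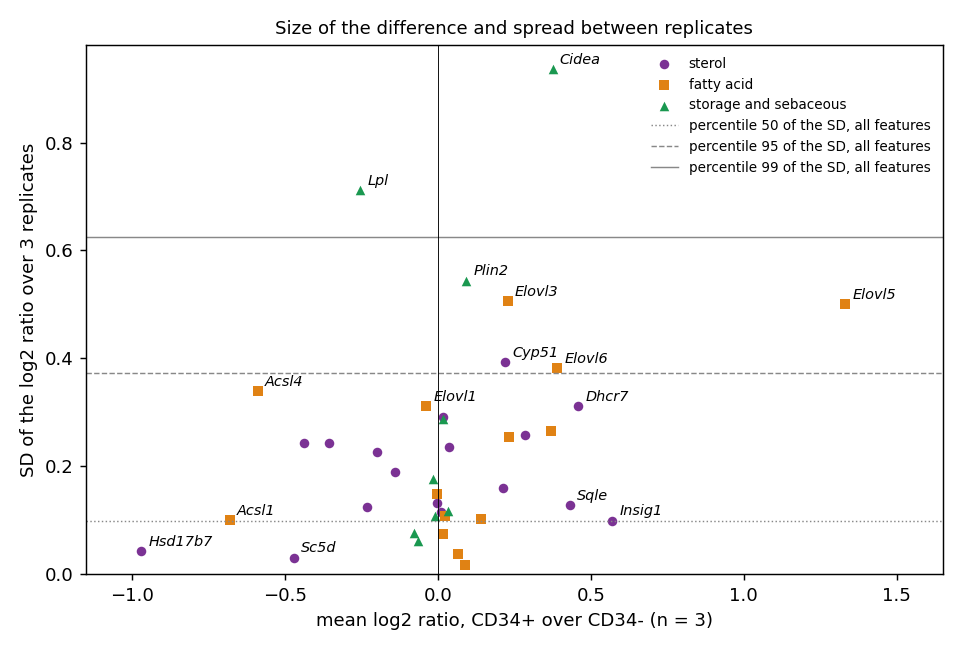
Mean log2 ratio (x axis) and SD over the 3 replicates (y axis) of the 40 tested lipid genes, with horizontal lines at percentiles 50, 95 and 99 of the SD over all features (0.0978, 0.373 and 0.626). Cidea and Lpl lie above the line of percentile 99 with means of 0.37 and -0.25, whereas Hsd17b7 and Sc5d combine a difference with an SD below the median.

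Replicate 2 had the lowest ratio in 27 of the 40 members (67.5%), and in 31.2% of all features. By group that was 12 of 17 sterol, 8 of 14 fatty acid and 7 of 9 storage and sebaceous genes. Ratios were negative in replicate 2 and positive in the other replicates for 10 members (25%) and for 3.56% of all features. This pattern was noticed in these values and is given as a description. An SD above percentile 95 of all features was seen for 7 members (17.5%), namely Cidea, Lpl, Plin2, Elovl3, Elovl5, Cyp51 and Elovl6.

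The list of sebaceous gland markers gave 1 call in 13 (7.69%, beside 12.0% of all features). This was the glutathione transferase Mgst1, higher in CD34+ cells with ratios of 0.61, 0.25 and 0.64 (mean 0.50, limma adjusted p = 0.0469). Most of that list are members described above, so it is no separate evidence, and 12 of the 13 were well above background on every array in both populations. Summed over the list, normalised intensity was 8275 to 13574 in CD34+ samples and 8164 to 9567 in CD34- samples. The list's median ratio was 0.11, -0.16 and 0.26 in replicates 1, 2 and 3. Replicate 2 was also low for the Langerhans cell markers Cd207, at 0.74, -1.11 and -0.04, Cd74, at 0.20, -0.99 and -0.46, and H2-Ab1, at 0.04, -0.69 and -0.26. It was the lowest for Epcam too, though positive, at 0.28, 0.07 and 0.23, and the highest for Tyrobp, at -0.23, -0.20 and -0.29. Adipocyte markers had a summed intensity of 1628 to 1866 in CD34+ samples and 1642 to 1697 in CD34- samples, and the adipocyte marker Fabp4 was at 0.36, 0.07 and 0.60. The part of sebocytes and Langerhans cells in the replicate differences was not tested.

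A wider list of 91 lipid genes, of which 67 were tested, gave 7 higher and 5 lower in CD34+ cells (17.9%, beside 12.0% of all features). Their median log2 ratio was -0.04. Of the tested genes in its sections, 5 of 21 passed for sterol control and transport, 1 of 13 for fatty acid synthesis, 4 of 23 for glycerolipids and 2 of 10 for epidermal ceramides. Those that passed held their sign in all 3 replicates.

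In sterol control and transport, Mbtps1, the protease that begins the release of SREBP from its membrane anchor, was higher at 0.68 ± 0.27 (SD, n = 3; limma adjusted p = 0.0380). The lysosomal cholesterol exporters Npc1 and Npc2 were both higher, at 0.44 and 0.34. For Npc2 the ratio depended on the dye, at 0.18, 0.15 and 0.11 with CD34+ in Cy5 and 0.67, 0.59 and 0.35 with CD34+ in Cy3, and it passed in 9 of 16 alternatives. Abcg1, which exports cholesterol to lipoproteins, had 184, 179 and 264 units in CD34+ samples and 394, 452 and 577 units in CD34- samples, at -1.18 ± 0.13 (limma adjusted p = 0.00902). All CD34+ values of Abcg1 lay below all CD34- values. Lbr, the lamin B receptor that also reduces sterols, was lower at -0.34.

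Hacd1, a dehydratase of the elongation cycle, was the fatty acid gene that passed, at 1.24 ± 0.35 (SD, n = 3; limma adjusted p = 0.0212). Its intensity was 620, 636 and 337 units in CD34+ samples and 226, 237 and 189 units in CD34- samples, without overlap. Other tested enzymes of that cycle in the wider list did not pass. The Hacd1 paralog Hacd2 was at -0.42, -0.98 and -0.31 and the reductase Hsd17b12 at 0.03, -0.69 and -0.82. Hacd3 and Tecr had no probe, and the elongase Elovl5, a member described above, passed as higher.

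Among glycerolipid and storage genes, Ppara, the nuclear receptor that drives fatty acid oxidation genes, was lower, with 152, 135 and 133 units in CD34+ samples and 355, 302 and 290 units in CD34- samples. The groups were apart, and the log2 ratio was -1.17 ± 0.05 (SD, n = 3; limma adjusted p = 0.00604). Agpat3, which makes phosphatidic acid, was lower at -0.69, and Abhd5, the activator of triglyceride breakdown, at -0.33. The phosphatidate phosphatase Lpin3 was higher at 0.26, or at 0.44 in the deposited ratios. Pparg, the nuclear receptor of sebocyte and fat cell differentiation, was at -0.13 and did not pass.

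Of the ceramide genes, Degs1, the desaturase that completes ceramide, was higher with 2578, 2274 and 1892 units in CD34+ samples and 1113, 1150 and 1324 units in CD34- samples. CD34+ was above CD34- throughout, at a log2 ratio of 0.90 ± 0.35 (SD, n = 3; limma adjusted p = 0.0348). Smpd1, the acid sphingomyelinase that forms ceramide in lysosomes, was higher at 0.43. The barrier genes Alox12b, Aloxe3 and Abca12 were at -0.02, 0.00 and 0.03 and did not pass. When arrays were centred on the median in place of loess, or scaled to one spread, 3 of the wider list were higher in CD34+ cells.

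**Figure D4:**
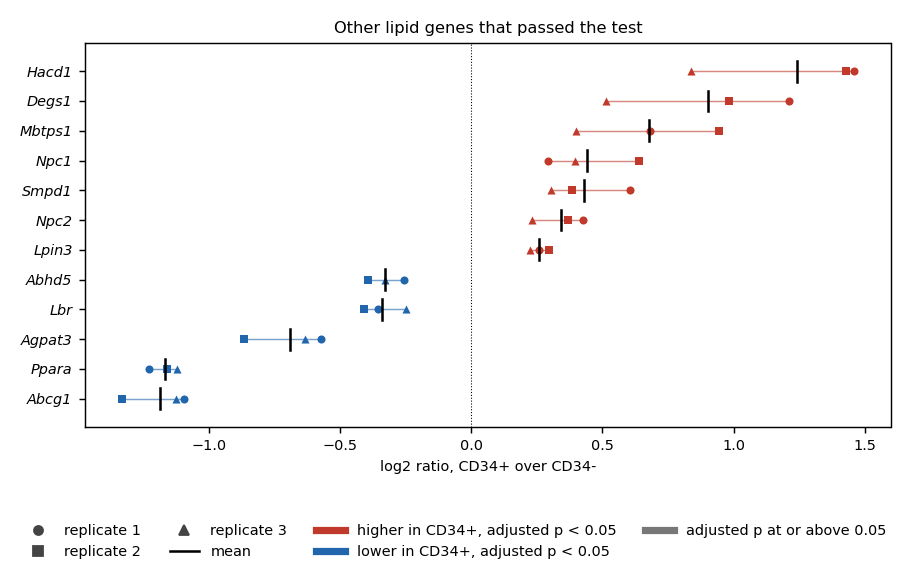
Log2 ratio of CD34+ over CD34- (x axis) for the 12 genes of the wider lipid list that passed an adjusted p of 0.05 (rows), with a symbol for each of the 3 replicates and a black bar for the mean. Hacd1 lies farthest to the right with a mean of 1.24, and Abcg1 and Ppara farthest to the left at -1.18 and -1.17.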

How the data were processed

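Gene expression of sorted keratinocytes was measured on 6 arrays with 2 colours. Spot and background intensities were read with Feature Extraction, per the file headers, in version 7.5.1 on replicates 1 and 2 (4 arrays) and in version 6.1.1 on replicate 3 (2 arrays). The deposited log10 ratios (Cy5 over Cy3) were background-subtracted and dye-normalised by that software, per the file headers, and the deposited value table equals their negative (largest difference 0). The labels number replicates 1 and 2, and the unnumbered dye pair was taken as replicate 3.

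From the intensities, limma 3.58.1 in R 4.3.3 applied normexp with an offset of 50 and loess within arrays, with outlier spots left out. The offset understates ratios of dim probes. A probe was kept if it was well above background in the same population in 2 or more replicates (20214, with 472 left out as dim and 182 for an outlier mark), and the brightest probe stood for its gene. For the printed levels, average intensities were quantile-normalised between arrays, which leaves the ratios as they are, and averaged over the 2 arrays of a replicate, and levels of different probes were not compared. Between 92.9% and 97.7% of probes on an array were well above background in a population, which is no proof of expression. The number of arrays limits the precision.

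Names came from RefSeq accessions of assembly GRCm38.p6 or, for 11 members, from the description or a synonym in it. Each log2 ratio was tested for a difference from 0 by lmFit and eBayes, with Benjamini-Hochberg adjustment over all features, and an adjusted p under 0.05 passed. The populations of a replicate are paired within each array, as the labels give it. Deviations of the 2 channels from their population means correlated across genes at 0.798, 0.717 and 0.811, and both channels come from the same spots. The test was checked on simulated data. The rule gave full values to members that passed, and other genes given them were picked after their values were seen. Members, lists and alternatives were chosen with earlier results of these data known.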

Additional observations from a re-analysis of the deposited data

How the results depend on the processing

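Of 16 alternatives, Hsd17b7 passed in 14, Elovl5, Sqle, Acsl1 and Sc5d in 13 and Insig1 in 11, and 7 members that had not passed did so in at least 1. Directions of the 6 genes that passed could hardly turn, since each had 1 sign on all arrays and several alternatives leave the mean as it is. Leaving out 1 replicate each gave 0 to 5 members higher and 0 to 7 lower in CD34+ cells, 0 to 10 and 0 to 16 of the wider lipid list, and 0 to 4196 features of the array. No replicate block, with the populations as unpaired channels, left 1 member higher (Elovl5) and 0 lower, 1 and 3 of the wider list, and 545 features, with 2622 under an unadjusted p of 0.05 by limma. Software version as a batch term gave 5 members higher and 7 lower, 12 and 17 of the wider list, and 5307 features. Only replicate 3 was read with the lower-numbered version. The term therefore fits replicate 3 exactly and keeps its deviation out of the spread that the test uses. All 6 arrays with a dye term gave 6 members lower, 16 of the wider list lower and 4255 features. Arrays with CD34+ in Cy5 alone gave 7 members and 8 of the wider list lower, with 3220 features passing in all, and turned Cyp51 to -0.34 (adjusted p = 0.0468). Median centring and scaling between arrays each left 3 of the wider list higher. Group medians differed from the main value by less than 1 SD of the 3 replicate medians under every alternative. This is a wide limit, with an SD of 0.16 beside a median of 0.01 for the sterol group. The sterol median was -0.04 without replicate 1, 0.07 without replicate 2 and -0.07 without replicate 3. For the storage and sebaceous group these were 0.01, 0.06 and -0.11. The causes were not tested. With 3 replicates, genes that did not pass are not shown to be equal. Dim probes such as those of Mc5r, Prdm1, Plin1, Lss, Acaca and Nsdhl carry compressed ratios.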
